A study of Homo sapiens with 3 samples.

Results

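On chromosome 16 of NTERA2 cells, binding sites of the long non-coding RNA SRA were dense on the long arm and almost missing from the short arm, whereas sites of the RNA helicase p68 lay on both. The sites were chosen by their chromosome and divided at 40 Mb of hg19, a position selected from the counts of SRA sites along the chromosome, so the contrast in SRA between the arms is a description and was not tested. SRA had 1 site on the short arm and 1045 on the long arm, out of 7899 in its whole list. The p68 list had 405 and 401 sites there, out of 14131. Both lists come from NTERA2, a human embryonal carcinoma line used as a model of pluripotent stem cells and grown in DMEM with 10% FBS. SRA was mapped by ChIRP-seq with biotinylated oligonucleotide probes, and p68 by ChIP-seq with an antibody. Each was done in 3 biological replicates that the authors intersected to give 1 list of positions without scores, and the input chromatin was not analysed here. Depth and the spread between replicates are therefore unknown, and all intervals below cover counting error only.

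SRA, the steroid receptor RNA activator, was first described as an RNA that helps nuclear receptors to activate transcription, and it has since been found with chromatin regulators of both activating and silencing kinds. p68, encoded by DDX5, is a DEAD box helicase that unwinds RNA and serves as a partner of SRA in transcription. ChIRP recovers the DNA that is crosslinked near an RNA, so an SRA site is a stretch of chromatin near which the RNA was held and not necessarily a sequence that it pairs with.

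Primers for PCR after ChIP or ChIRP were listed for 10 genes, and 2 of these, HSD11B2 and MLYCD, are on chromosome 16 in the RefSeq gene table. HSD11B2 is the enzyme that inactivates cortisol, and MLYCD breaks down malonyl-CoA. Their primers are shown in lower case, 5′ to 3′, because they mark the 2 stretches of this chromosome that the primer table lists for single assays. They were not placed on the site lists, because no hg19 sequence or annotation was used here. For the same reason no gene is named at the positions below.
HSD11B2 forward: ctgactccattgcatcgtgg
HSD11B2 reverse: tctccactcatgctccaagg
MLYCD forward: aagaacagggttgtgggagt
MLYCD reverse: ctgccaagacacagacacac

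The split lies inside a long stretch without sites of either list, where chromosome 16 carries its centromere and a block of heterochromatin. The last p68 sites before it ran from 33957557 to 33959056 and from 33965821 to 33966711, and the first after it from 46398242 to 46404134 and from 46413142 to 46414802. No p68 site was listed in the 12.4 Mb between. The SRA sites on either side were 18.0 Mb apart. The only one on the short arm ran from 28621178 to 28623006, was 1829 bp wide and had its nearest p68 site 4040 bp away. On the long arm, the first SRA sites ran from 46662906 to 46663986 and from 46887513 to 46888845. With no site of either list in this stretch, a split at 36 Mb or at 46 Mb divides the lists in the same way.

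Along the long arm, SRA sites rose and fell in broad waves. The sites of both lists on this arm fell into 45 consecutive windows of 1 Mb, starting at 46 Mb, of which 1 (76 to 77 Mb) was empty. The number of SRA sites per window had a median of 20, quartiles of 7 and 36 and a highest value of 67. Over its span of 43.5 Mb the arm had 24.1 SRA sites per Mb (95% exact Poisson interval 22.6 to 25.6), which together covered 6.02% of it. On the other chromosomes the list had 3.02 per Mb and covered 0.824%. A sparse stretch divided the arm into a proximal and a distal part.

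**Figure D1:**
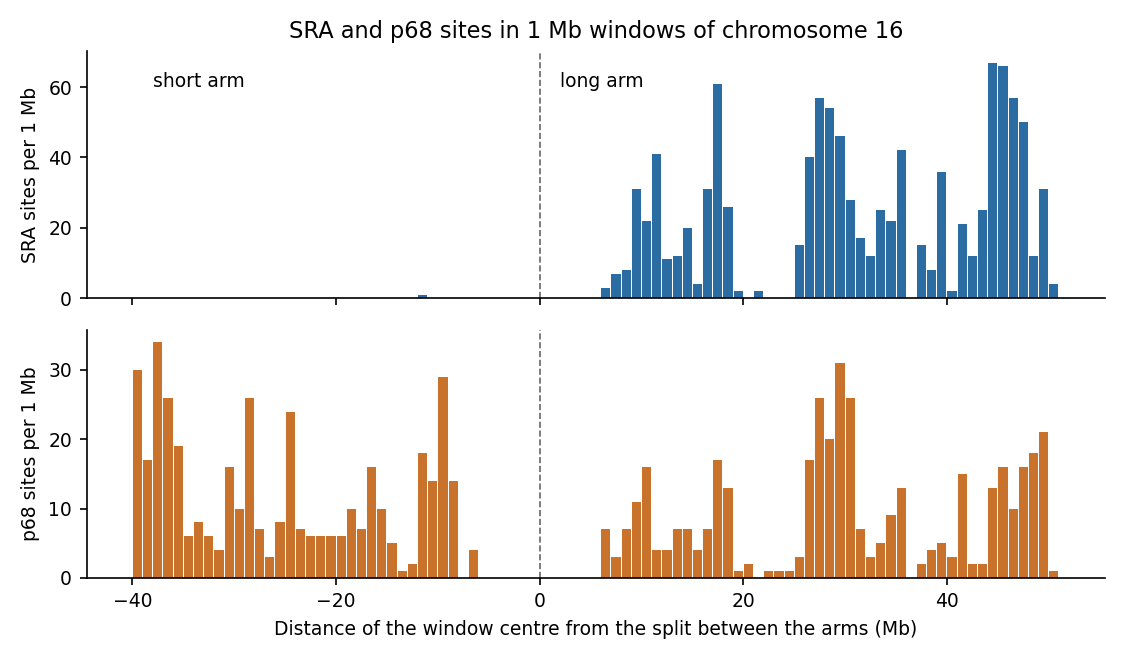
Number of SRA sites (upper bars) and p68 sites (lower bars) in each 1 Mb window of chromosome 16, against the distance of the window from the split at 40 Mb (dashed line, in Mb, short arm to the left). SRA bars reach 67 sites per window on the long arm and the short arm shows a single site, while p68 bars reach 34 on the short arm and 31 on the long arm.

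The proximal stretch, from 46 to 59 Mb, had 277 SRA sites (21.3 per Mb, 95% interval 18.9 to 24.0) and 107 p68 sites. Its fullest window, from 57 to 58 Mb, held 61 SRA sites that covered 14.7% of the window. From 59 to 65 Mb there were 4 SRA sites (0.667 per Mb, interval 0.182 to 1.71) and 6 p68 sites, so that both lists were sparse in the same place. The distal stretch, from 65 Mb to the end of the chromosome, had 764 SRA sites (30.4 per Mb, interval 28.3 to 32.7) and 288 p68 sites. The borders of these stretches were set after the counts had been seen.

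The 4 windows from 84 to 88 Mb, near the end of the arm, were the fullest row of windows. They held 67, 66, 57 and 50 SRA sites, which is 23.0% of those on the arm, beside 55 p68 sites. The window from 67 to 68 Mb had 57 SRA sites as well. Together the 5 richest windows (84 to 87 Mb, 57 to 58 Mb and 67 to 68 Mb) held 308 SRA sites, or 29.5% of the arm (95% Wilson interval 26.8 to 32.3%). They held 82 p68 sites, or 20.4% of those on the arm (16.8 to 24.7%). Of the 20 windows of 1 Mb with most SRA sites in the whole list, 9 lay on this arm and 9 on chromosome 1. The highest value in the list was 69.

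Windows without SRA were few. They were those starting at 60, 62, 63, 64 and 76 Mb, and they had 5 p68 sites in all. The longest stretch with no SRA site on the arm, from 61971599 to 65150727 (3.18 Mb), contained 3 p68 sites. The next ran from 59274417 to 61295920 (2.02 Mb, 2 p68 sites) and from 75655885 to 77617283 (1.96 Mb, 1 p68 site). Shorter ones ran from 79806051 to 80498870 (0.693 Mb, 1 p68 site) and from 61298357 to 61970115 (0.672 Mb, no p68 site). The places on this arm that lacked SRA were thus places where p68 was also rare, unlike the short arm, where SRA was missing in the presence of p68.

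SRA sites of the long arm were crowded. Of the 1045 sites, 720 had another SRA site within 10 kb of their edges, or 68.9% (95% Wilson interval 66.0 to 71.6%), where the whole list gives 48.1% and the other chromosomes 44.9%. Within 2 kb the share was 39.5%, against 24.7% on the other chromosomes. By stretch, the share within 10 kb was 59.9% (54.1 to 65.5%) in the proximal part, 72.5% (69.2 to 75.6%) in the distal part and 80.0% (74.5 to 84.6%) in the 4 windows from 84 to 88 Mb, and none of the 4 sites of the sparse stretch had such a neighbour. The same SRA sites chose the arm, so crowding is given as a description with no test. Chromosome 1, the most SRA-rich chromosome by number, had 61.9% within 10 kb at 9.94 sites per Mb. The SRA-rich part of chromosome 7, before 60 Mb, had 49.1% at 8.69 per Mb, and that of chromosome 17, after 40 Mb, had 44.0% at 8.92 per Mb, with borders likewise taken from the SRA counts.

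The gap from one SRA site to the next on the arm had a median of 11834 bp and quartiles of 2334 and 32687 bp. In 127 of 1044 cases (12.2%) the next site followed within 500 bp, and the shortest gap was 5 bp. Many neighbouring SRA sites were thus separated by less than the width of a site. Sites of negative control probes (LacZ) were subtracted from the SRA list only. Whether this cut single peaks into neighbouring sites was not tested.

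**Figure D2:**
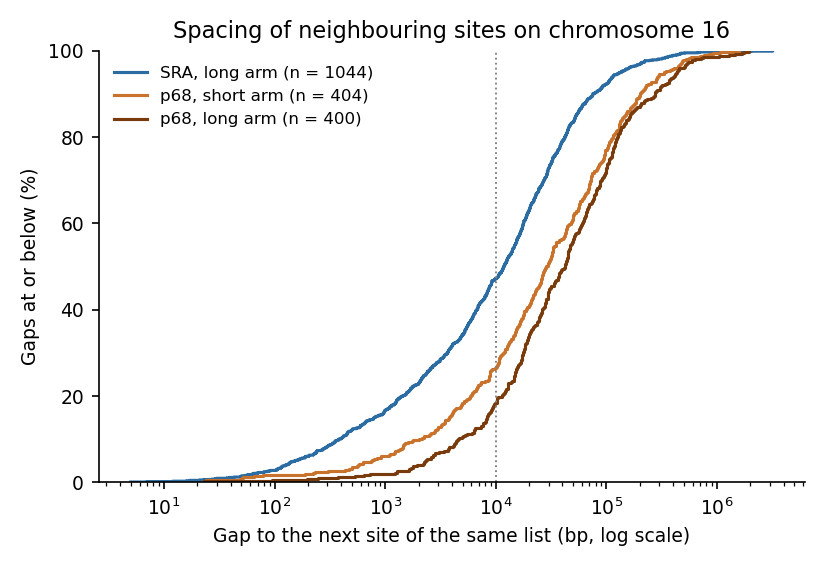
Cumulative percent of gaps between neighbouring sites of the same list (vertical axis) at or below a given gap in bp (horizontal axis, log scale), for SRA on the long arm and p68 on either arm of chromosome 16, with 10 kb dotted. The SRA curve lies to the left with a median of 11834 bp, followed by p68 on the short arm (28391 bp) and p68 on the long arm (42129 bp).

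Joining SRA sites with gaps of at most 10 kb left 552 groups on the arm. Of these, 325 were single sites, 227 had at least 2 and 37 had at least 5, and the latter held 243 SRA sites. The largest, with 16 sites, ran from 84536405 to 84601753, and its sites covered 56.7% of 65349 bp with a median gap of 1009 bp. None of its sites was wider than 4053 bp, so this group is a row of medium sites rather than a few wide ones. It touched a single p68 site.

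A group of 12 SRA sites ran from 69090943 to 69147481 and another of 12 from 75086277 to 75151658. They were alike in size but not in p68. The first had 4 p68 sites in its span, and 4 of its SRA sites had one within 500 bp, while the other had none. A group of 11 SRA sites from 67420154 to 67467457 was the most filled of the 5 largest, with 71.9% of its length covered, and had 3 p68 sites. A group of 10 from 83825382 to 83866320 had no p68 site. In all, 14 groups of at least 10 SRA sites were listed in the genome, and 5 of them were on this arm. Of the 37 groups of at least 5 sites on the arm, 12 (32.4%) had a p68 site within 500 bp of a member, beside 45.3% of such groups in the whole list. Of the 137 such groups in the list, 75 were on chromosome 1, where 15.9% of SRA sites had p68 within 500 bp. Large groups reach more positions than single sites, and these shares were not tested.

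SRA sites of the long arm were slightly narrower than those elsewhere. Their median width was 2122 bp (95% interval of the median from order statistics 2046 to 2200 bp), with quartiles of 1622 and 2961 bp. On the other chromosomes the median was 2242 bp, so that the ratio was 0.95 (interval 0.91 to 0.98, with the median of the other chromosomes held fixed). Against the other chromosomes without chromosome 1, where sites were wide (median 2947 bp), the ratio was 1.06. The direction therefore depends on chromosome 1. Within the arm the median was 2269 bp in the proximal and 2085 bp in the distal part. Medians on chromosome 7 before 60 Mb and chromosome 17 after 40 Mb were 2726 and 1753 bp.

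The widest SRA site of the arm, from 67454688 to 67464658, measured 9971 bp. The next in width were 9901 bp (68414272 to 68424172) and 9520 bp (51470670 to 51480189). The first of these is part of the group of 11 and overlapped a p68 site. The others had their nearest p68 site 57698 and 20488 bp away.

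How p68 was spread over the arms was a separate question, since the p68 list did not place the split. On the short arm p68 had 11.9 sites per Mb over 33.9 Mb (95% exact Poisson interval 10.8 to 13.2), and on the long arm 9.18 per Mb over 43.7 Mb (8.30 to 10.1). Spans were measured from the first to the last p68 site of an arm. The ratio of the long arm to the short arm was 0.768 by sites. Neighbouring sites are not independent, and the test therefore counted groups of p68 sites joined within 10 kb, of which there were 297 and 327. By groups the ratio was 0.854 (95% exact interval 0.728 to 1.00), and the difference did not pass the threshold (exact binomial test, two-sided, p = 0.053, adjusted p = 0.11 over 4 tests). Dividing by the windows of 1 Mb that held a p68 site gave an unadjusted p of 0.036 in the same exact test, with a ratio by sites of 0.760. Both arms were denser in p68 than the other chromosomes, where the list had 4.69 sites per Mb.

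Along the short arm the windows up to the last p68 site had a median of 8 p68 sites, with quartiles of 6 and 16.8. The fullest held 34 (2 to 3 Mb), 30 (0 to 1 Mb) and 29 (30 to 31 Mb). Next were the windows from 3 to 4 Mb and from 11 to 12 Mb with 26 each, and from 15 to 16 Mb with 24. Full windows thus lay at the end of the arm and at several places along it. On the long arm the median was 7, with quartiles of 3 and 15. The fullest windows there held 31 (69 to 70 Mb), 26 (67 to 68 Mb) and 26 (70 to 71 Mb), all in the first part of the distal stretch. A window without p68 occurred 1 time on the short arm and 2 times on the long arm.

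Widths of p68 sites were close on the arms. The median was 1140 bp on the short arm (95% interval 1088 to 1179 bp) and 1107 bp on the long arm (1070 to 1140 bp). The shares of sites wider than the median of the whole p68 list, 1185 bp, were 44.2% (179 sites, Wilson interval 39.4 to 49.1%) and 42.1% (169 sites, 37.4 to 47.0%), where the whole list has 50% by construction. The difference did not pass the threshold (Fisher's exact test, two-sided, adjusted p = 0.70), and the intervals allow differences of several percentage points in either direction. On the long arm, the 93 p68 sites that SRA reached within 500 bp had a median of 1056 bp, and the other 308 had 1124 bp.

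The widest p68 sites of the short arm lay close to each other. Their widths were 6685 bp (15053337 to 15060021), 4203 bp (15077832 to 15082034) and 3393 bp (15063192 to 15066584). On the long arm the widest was the first site after the split, from 46398242 to 46404134, with 5893 bp. It was followed by sites of 3393 bp (46497324 to 46500716) and 3086 bp (74642260 to 74645345). The nearest SRA sites to those of the long arm were 258771, 162189 and 9669 bp away, in the order of width.

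Of the 3 comparisons of p68 between the arms, clustering was the one that passed its test, and then by sites but not by groups. Another p68 site within 10 kb was found for 180 of 405 sites on the short arm, or 44.4% (95% Wilson interval 39.7 to 49.3%). On the long arm it was found for 138 of 401, or 34.4% (29.9 to 39.2%). In the whole p68 list the share is 37.9%, which lies between the arms. The difference of 10.0 percentage points passed the threshold (Fisher's exact test, two-sided, adjusted p = 0.016). This test takes neighbouring sites as independent, so its p is too small. Within 2 kb, where the shares were 18.8% and 7.98%, the unadjusted p was 7.1e-06 in the same exact test, while within 50 kb the shares were 80.5% and 77.3% with a p of 0.30. Counted by groups, 72 of 297 (24.2%) on the short arm and 64 of 327 (19.6%) on the long arm had at least 2 p68 sites, and that difference did not pass (exact p = 0.17).

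The gaps show the same order. The median gap between p68 sites was 28391 bp on the short arm and 42129 bp on the long arm, and the lower quartiles were 8896 and 14802 bp. The short arm was also the denser in p68, and the part of density in the clustering was not tested.

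Of the 297 p68 groups on the short arm, 8 had at least 4 sites (2.69%, with 35 sites in all), beside 2.89% of groups in the whole p68 list. The long arm had none in 327, a difference that was not tested. The largest on the short arm had 6 p68 sites from 430045 to 447634, followed by 5 from 29683420 to 29714871. There were 6 groups of 4, and the first 3 by position ran from 2517376 to 2525786, from 9161143 to 9181465 and from 14748903 to 14769982. On the long arm the largest groups had 3 sites, and there were 10 of them. The first 5 by position began at 53588333, 66767313, 67592275, 67802957 and 68148860. Of all 10, 9 lay between 66 and 71 Mb. Neither arm came near the largest p68 group of the list, which had 25 sites.

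Where both lists were present, on the long arm, the windows with many SRA sites mostly had many p68 sites. In the 15 windows richest in SRA (31 to 67 SRA sites) p68 had 15.1 sites per Mb (95% exact interval 13.2 to 17.2). In the 15 in the middle (12 to 28 SRA sites) it had 9.0 (7.55 to 10.7), and in the 15 poorest (0 to 11 SRA sites) 2.60 (1.85 to 3.55). Over the 45 windows the correlation of the counts was 0.69 (Pearson's r) and 0.78 (Spearman's rho), and 0.62 and 0.67 in the 39 windows outside the sparse stretch. These are descriptions over windows that share the same 2 lists, and the 2066 windows with a site on the other chromosomes gave 0.52 and 0.51. The 2 sets of windows are unlike. The arm was chosen for its SRA sites and includes 1 empty window, while the others pool chromosomes rich and poor in SRA. Their values were not tested against each other.

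**Figure D3:**
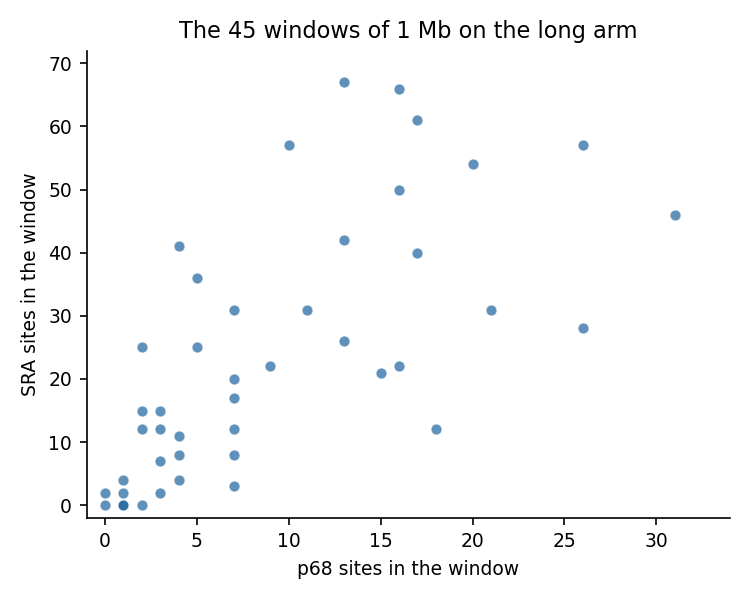
Number of SRA sites (vertical axis) against number of p68 sites (horizontal axis) in the 45 windows of 1 Mb on the long arm of chromosome 16, each point a window. SRA counts rise with p68 counts, with a Spearman's rho of 0.78, and the window with most p68 sites (31) has 46 SRA sites while the one with most SRA sites (67) has 13 p68 sites.

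Some windows departed from this relation, and the ones given here were picked for doing so. The window from 51 to 52 Mb had 41 SRA sites and 4 p68 sites, the one from 79 to 80 Mb had 36 and 5, and the one from 83 to 84 Mb had 25 and 2. From 88 to 89 Mb the order was turned, with 12 SRA sites and 18 p68 sites. SRA sites per p68 site were 2.61 on the arm and 0.514 on the other chromosomes.

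SRA and p68 sites close enough to count as shared made up a minority on the long arm. With at most 500 bp between edges, 102 of 1045 SRA sites had a p68 site, or 9.76% (95% Wilson interval 8.11 to 11.7%), beside 11.6% in the whole SRA list and 11.9% on the other chromosomes. Counting groups of SRA sites joined within 10 kb, 80 of 552 had p68 (14.5%, interval 11.8 to 17.7%), where the whole list gives 13.9% and the other chromosomes 680 of 4900 (13.9%, 12.9 to 14.9%). The difference by groups did not pass the threshold (Fisher's exact test, two-sided, adjusted p = 0.70). This call rests on chromosome 1. Without it the other chromosomes had 10.97% of groups with p68, and the unadjusted p was 0.018 (Fisher's exact test, a comparison added after the data were seen).

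Seen from p68, 93 of the 401 sites of the long arm had an SRA site within 500 bp, or 23.2% (95% Wilson interval 19.3 to 27.6%), beside 6.55% in the whole p68 list. The number of SRA sites that chose the arm raises this share, and it was not tested. On the short arm no p68 site had one. The median distance from a p68 site of the long arm to the nearest SRA site was 5989 bp, whereas from an SRA site to the nearest p68 site it was 22787 bp.

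Sharing differed between windows of the arm. Those given here were picked for high or low shares, and their intervals do not allow for that choice. In the window from 70 to 71 Mb, 11 of 28 SRA sites had p68 (39.3%, Wilson interval 23.6 to 57.6%), and from 69 to 70 Mb 10 of 46 did (21.7%, 12.3 to 35.6%). In the window from 51 to 52 Mb 1 of 41 did (2.44%, 0.432 to 12.6%), and from 73 to 74 Mb none of 25 did. The first and second of these windows were among the 3 fullest in p68 on the arm. By stretch the share was 7.58% (5.01 to 11.3%) in the proximal and 10.6% (8.61 to 13.0%) in the distal part, with intervals that overlap.

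Shared sites on the long arm met at their edges. Of 82 overlapping pairs, the median overlap was 401 bp, which is 15.9% of the SRA site and 35.9% of the p68 site. The p68 site lay wholly inside the SRA site in 10 pairs, and its midpoint was inside in 25. No SRA site lay inside a p68 site.

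Inside SRA sites of the arm there were 9.56 p68 midpoints per Mb (95% exact Poisson interval 6.19 to 14.1, 25 midpoints). In the first 500 bp outside there were 47.1 per Mb (34.2 to 63.3, 44 midpoints), which is 4.93 times as dense (95% exact interval 2.95 to 8.40). The density then fell with distance, to 19.2 per Mb up to 2 kb, 14.0 up to 10 kb, 9.0 up to 50 kb and 4.45 from there to 0.2 Mb. Inside SRA sites p68 midpoints were thus about as dense as at 10 to 50 kb and far less dense than at the border. The same arrangement is found in the whole list. The other chromosomes had 11.01 per Mb inside (9.56 to 12.6) and 52.7 in the first 500 bp (47.2 to 58.6), intervals that overlap those of the arm. From 10 to 50 kb they had 13.4 per Mb (13.0 to 13.9), above the 9.0 (7.47 to 10.8) of the arm.

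**Figure D4:**
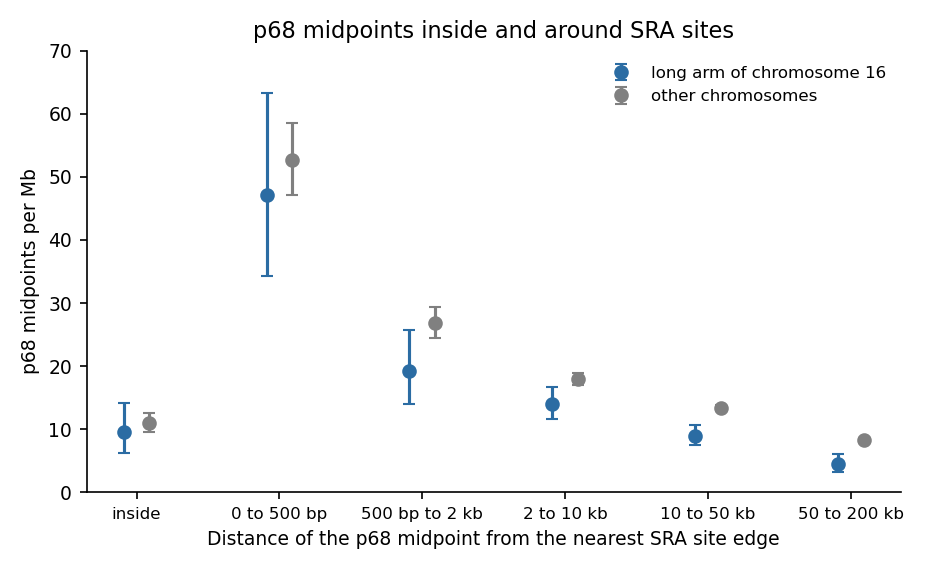
Density of p68 site midpoints per Mb (vertical axis) inside SRA sites and in bands of increasing distance from the nearest SRA site edge (horizontal axis), for the long arm of chromosome 16 and for the other chromosomes. Points are densities and bars 95% exact Poisson intervals, and the long arm rises from 9.56 inside to 47.1 in the first 500 bp and falls to 4.45 beyond 50 kb.

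Among SRA sites of the arm, the 102 that p68 reached within 500 bp were a little wider, with a median of 2360 bp and quartiles of 1679 and 3057 bp. The other 943 had a median of 2102 bp and quartiles of 1613 and 2951 bp. A wide site reaches more positions, and these widths are given without a test.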

How the data were processed

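The 2 deposited lists hold 3 columns each (chromosome, start and end in bp), and the input was not analysed here. Per the labels the build is hg19. The authors sequenced 50 bp from 1 end of each fragment, discarded duplicates and any read whose mapping quality fell below 20, ran MACS 1.4.2 on each of 3 replicates (threshold 1e-04 on the p-value in ChIRP, 1e-05 in ChIP), intersected the replicates and, for SRA only, subtracted LacZ probe sites. The submitters' processing notes name CASAVA 1.8.2. A site missing from 1 replicate is thus absent, the lists differ in threshold, and depth is unknown.

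Sites were used unfiltered, with the first base counted as 1, and assigned to arms and windows by their midpoints. Gaps are between edges. Shares have Wilson intervals and densities exact Poisson intervals. The 4 tests (exact binomial or Fisher's exact) were adjusted together by Benjamini-Hochberg, with a threshold of 0.05. No resampling was run. The regions named are the largest groups, widest sites, fullest and empty windows and longest empty stretches. Members, lists and rules were chosen with earlier results of these data known. Functions were tested on simulated data. RefSeq tables of GRCh38 were used for gene names and chromosomes only, and hg19 annotation steps were not run. Scripts ran in Python 3.11.15 (scipy 1.17.1, pandas 2.3.3, numpy 2.4.6, matplotlib 3.10.9).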

Additional observations from a re-analysis of the deposited data

How the results depend on the processing

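Of 40 alternatives over 11 results, 23 left the direction and the call or value as reported. These 23 include the moved splits, applied to the SRA count, the p68 density and the p68 width. No site lies between the split positions, so the moved splits could not change a value and say nothing about robustness. The alternatives added after seeing the data were p68 clustering by groups and sharing without chromosome 1. No paired analysis was possible because each assay has 1 list without replicates, and none could be left out. The steps that need an annotation of hg19 were not run.

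SRA on the long arm came to 552 when groups joined within 10 kb were counted in place of 1045 sites, and the 5 richest windows then held 23.5% in place of 29.5%. The largest group had 6 SRA sites when joined within 2 kb and 50 within 50 kb, in place of 16, and 39.5% and 94.8% of SRA sites had a neighbour at those distances. The share of p68 sites near SRA on the long arm was 18.0% if they had to overlap, 30.4% if gaps up to 2 kb counted, 7.48% if SRA had to cover 50% of them, and 1.75% if midpoints had to be within 500 bp. For SRA sites, gaps up to 2 kb gave 13.3% and coverage of 50% gave 0.191%. Under these rules the long arm lay below the other chromosomes by groups (−0.07 and −0.49 percentage points, exact p = 1.0 and 0.31), against 0.615 above as reported, and no call changed. Without chromosome 1 the share of 9.76% is unchanged and the difference by groups was 3.52 percentage points (unadjusted exact p = 0.018), with larger groups on the arm. By sites the arm was not above the rest. With windows as length the p68 density ratio by sites was 0.760. The exact p by groups was then 0.036, which was not adjusted with the 4 tests. Without the 5 fullest windows of each arm the ratio was 0.796, with an exact p of 0.25. The p68 clustering difference was −3.19 percentage points within 50 kb and −4.67 by groups, and passed in neither. The SRA width ratio was 1.06 without chromosome 1.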
